A study of Mus musculus with 2 samples.

Results

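The interferon-inducible GTPases described here are 10 genes of the mouse genome, the guanylate-binding proteins Gbp2, Gbp3, Gbp4, Gbp5, Gbp6 and Gbp7 and the immunity-related GTPases Irgm1, Irgm2, Igtp and Iigp1. They were chosen by symbol among the 32285 features of the deposited matrices, by a rule that names the symbols and no threshold on a measured value, and all 10 were found. The list was drawn up with earlier results of these data known. Below, the family and any order within it mean these 10 genes, and other GBPs such as Gbp2b, Gbp8, Gbp9 and Gbp10 are given only with the related gene lists. Their transcripts were measured by single-cell RNA sequencing of J558 allografts, which are tumours of a mouse plasmacytoma line grown under the skin of female BALB/c mice that keep their own immune system. The vehicle group received 0.5% methylcellulose and the TAK-931 group received TAK-931, an inhibitor of the replication kinase CDC7, at 60 mg/kg by mouth once a day, and both tumours were taken at day 6. Each group was 1 library from 1 sample, so no difference below carries a test. Intervals of levels, ratios and shares are 95% intervals that cover only the counting of UMIs or cells. An interval that follows a median is the median of its genes' bounds, and is not a 95% interval of the median.

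Both protein families are made after interferon, above all interferon gamma, and act inside the cell that makes them. GBPs are dynamin-like GTPases that assemble on the membranes of vacuoles and on bacteria in the cytosol, where they help break the compartment open and feed inflammasome signals. Among the IRG proteins, Irgm1, Irgm2 and Igtp (also called Irgm3) stay on host membranes and hold the effector proteins in check, and Iigp1 (also called Irga6) is such an effector, which loads onto the vacuoles of intracellular parasites.

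The genes lie in several regions of the GRCm38 assembly (GENCODE M21 models, all protein coding). Gbp5 (chr3:142493978-142522344), Gbp7 (chr3:142530342-142550149), Gbp3 (chr3:142560026-142573209) and Gbp2 (chr3:142620602-142638008) follow each other on the plus strand of chromosome 3. Gbp4 (chr5:105115767-105139586) and Gbp6 (chr5:105270702-105293698) lie on the minus strand of chromosome 5. Irgm1 (chr11:48861968-48871683, minus strand) stands apart from Igtp (chr11:58199556-58207591) and Irgm2 (chr11:58199618-58222782), whose models overlap on the plus strand of chromosome 11 and share 162 exon bases. Iigp1 lies on another chromosome, away from the other members. Of the 90-base windows in the last 500 bases of the Gbp6 transcripts, 65.5% also occur in transcripts of Gbp10 or of the model Gm43302, and 8.22% of the Gbp4 windows occur in other genes, so the Gbp6 level in particular is uncertain. For Gbp3 this share was 0.45%, and for the other 7 genes it was 0.

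The letters before the start of 5 of these genes are shown, because interferon acts on the family through short elements in this stretch. They are the 250 bases upstream of the RefSeq start on the gene's own strand (GRCm38.p6, from C57BL/6J and not BALB/c), at chr3:142496684-142496933 for Gbp5, chr3:142530086-142530335 for Gbp7, chr11:48871421-48871670 for Irgm1, chr11:58199306-58199555 for Igtp and chr11:58214727-58214976 for Irgm2. Capitals mark the core of the interferon-stimulated response element (ISRE), spelled GAAANNGAAA or, on the other strand, TTTCNNTTTC.
Gbp5: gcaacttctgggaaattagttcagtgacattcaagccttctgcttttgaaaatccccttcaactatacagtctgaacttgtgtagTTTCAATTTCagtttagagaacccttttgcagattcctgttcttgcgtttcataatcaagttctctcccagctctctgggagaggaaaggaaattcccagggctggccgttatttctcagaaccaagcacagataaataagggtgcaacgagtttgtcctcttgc
Gbp7: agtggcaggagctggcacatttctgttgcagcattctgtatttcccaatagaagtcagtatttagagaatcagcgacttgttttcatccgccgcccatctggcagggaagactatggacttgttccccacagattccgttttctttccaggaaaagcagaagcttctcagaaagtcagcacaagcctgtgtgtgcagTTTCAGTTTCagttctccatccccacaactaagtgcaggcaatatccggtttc
Irgm1: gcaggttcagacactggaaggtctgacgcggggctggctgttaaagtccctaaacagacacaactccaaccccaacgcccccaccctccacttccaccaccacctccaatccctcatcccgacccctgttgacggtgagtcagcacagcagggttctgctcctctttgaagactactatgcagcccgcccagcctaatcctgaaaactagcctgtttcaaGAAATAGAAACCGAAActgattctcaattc
Igtp: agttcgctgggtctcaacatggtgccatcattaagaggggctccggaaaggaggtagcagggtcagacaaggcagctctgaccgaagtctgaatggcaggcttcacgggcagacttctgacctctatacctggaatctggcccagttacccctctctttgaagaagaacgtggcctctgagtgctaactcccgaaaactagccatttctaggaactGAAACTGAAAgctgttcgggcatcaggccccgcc
Irgm2: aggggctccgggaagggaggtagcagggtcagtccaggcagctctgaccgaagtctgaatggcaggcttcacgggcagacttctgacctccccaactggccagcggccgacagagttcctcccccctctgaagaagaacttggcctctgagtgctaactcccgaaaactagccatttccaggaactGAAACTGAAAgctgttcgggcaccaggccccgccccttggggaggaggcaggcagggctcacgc

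A RefSeq promoter was found for 7 of the 10 genes, and all 7 held the ISRE core, against 2.98% of the 32851 promoters of the same length. The core began 165 bases before the start in Gbp5, 53 in Gbp7, 59 in Gbp2, 34 in Igtp and 64 in Irgm2. Irgm1 held 2 overlapping cores, at 30 and 24 bases, and Gbp3 held 2, at 45 and 39 bases before the first of its 2 RefSeq starts and none before the other. The gamma-activated site (GAS), spelled TTCNNNGAA and the same on both strands, was found in 4 of the 7 genes (Gbp5, Gbp7, Igtp and Irgm2), against 7.02% of promoters, and none of these matches overlapped an ISRE core. Igtp and Irgm2 shared a run of 55 identical bases. A match describes letters and not a bound site.

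Unique molecular identifiers (UMIs) count single captured transcripts. There were 144767193 of them over 4565 barcodes of the vehicle library, and 77369283 over 6558 barcodes with TAK-931. After the cell filter 3441 and 3488 cells remained, with a median of 40504 and 15097 UMIs. Only 8 barcodes occurred in both libraries. Each cell was classed by marker genes, none of which was one of the GTPases, and 52 vehicle and 282 TAK-931 cells that passed the gates of 2 lineages were left out of all classes. J558 plasmacytoma-like cells numbered 3003 and 96 (vehicle and TAK-931), monocyte/macrophage-like 218 and 2057, endothelial-like 73 and 167, fibroblast-like 14 and 39, mural-like 22 and 32, dendritic-like 11 and 34, and CD8 T-like 7 and 462. Every marker of its own list had a UMI in endothelial-like cells of both libraries (9 of 9), in monocyte/macrophage-like cells (10 of 10) and in fibroblast-like cells (7 of 7). The same lists set the gates, so this gives no separate support to the class names.

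Levels are given as CPM, the UMIs of a gene in the summed cells of a class, scaled to a class total of 1000000. The reads come from the 3′ end and count 1 UMI per transcript, so the levels do not grow with transcript length. Over whole libraries, all 10 GTPases were higher with TAK-931, at a median log2 ratio of 4.48 (4.37 to 4.59), where the 18139 genes that reached 10 UMIs over the pair of sums had a median of 0.33 and 37.3% of genes were at least 2-fold higher. Their summed level was 50.9 CPM in the vehicle library and 1138 CPM in the TAK-931 library. Irgm1 went from 10.7 to 202.5 CPM, Iigp1 from 7.20 to 294.7 CPM and Gbp6 from 0.454 to 50.7 CPM. In such sums fewer cells of a type and less RNA per cell cannot be told apart, and the make-up of the tumours differed widely. With the vehicle level of each class applied to the UMIs of the classes in the TAK-931 library, the summed level in the 6 classes with at least 10 cells in both libraries, which leaves out CD8 T-like cells, would have gone from 45.3 to 382.5 CPM (3.08 on the log2 scale), and the levels within classes accounted for the remaining 1.70, a 3.24-fold difference. By gene, this within-class part ranged from 1.55-fold for Gbp7 to 5.42-fold for Gbp6.

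Endothelial-like cells, the lining of the tumour vessels, held the highest summed level of the family in both libraries. With vehicle it was 913.9 CPM (863.0 to 967.0). With TAK-931 it was 3488 CPM (3420 to 3557), which is 3.82-fold higher. All 10 genes were at least 2-fold higher with TAK-931, with a median log2 ratio of 2.04 (1.74 to 2.56), whereas 10.1% of all genes passed that fold in these cells and their median was -0.12.

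Among the chromosome 3 GBPs of endothelial-like cells, Gbp2 stood at 49.3 CPM with vehicle and 163.1 CPM with TAK-931. Gbp3 stood at 41.0 and 194.1 CPM. Gbp5, a GBP known for its part in inflammasome assembly, stood at 15.9 and 163.5 CPM, a log2 ratio of 3.36 (2.73 to 4.06). Of the 10 genes only Gbp6 had a larger ratio in these cells, and the intervals of the pair overlapped. Gbp7 was already at 116.1 CPM with vehicle and reached 258.6 CPM, the smallest ratio of the 10 (1.16, interval 0.90 to 1.42). The chromosome 5 genes took opposite places in level, since among the 6 GBPs of the family Gbp4 was the most abundant in both libraries (198.1 and 707.5 CPM) and Gbp6 the least abundant with vehicle (10.6 CPM). Gbp6 reached 156.1 CPM, the largest log2 ratio of the family (3.88, 3.12 to 4.76), with the reservation on its shared 3′ sequence given above.

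For the regulatory IRG genes of endothelial-like cells, Irgm1 stood at 57.7 CPM with vehicle and 299.7 CPM with TAK-931. Igtp stood at 29.6 and 215.7 CPM, a log2 ratio of 2.87 (2.40 to 3.37). Irgm2 was the lowest of the family with TAK-931, at 16.7 and 55.8 CPM. The effector gene Iigp1 was the most abundant of the 10 in both libraries, at 378.8 CPM (346.3 to 413.5) with vehicle and 1274 CPM (1233 to 1316) with TAK-931. The log2 ratio was 1.75 (1.61 to 1.89). With vehicle its transcripts were unevenly spread, as 39 of 73 cells held a UMI of Iigp1 and 1 cell held 19.0% of the Iigp1 UMIs. With TAK-931 161 of 167 cells held one, and the top cell held 6.10%.

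**Figure D1:**
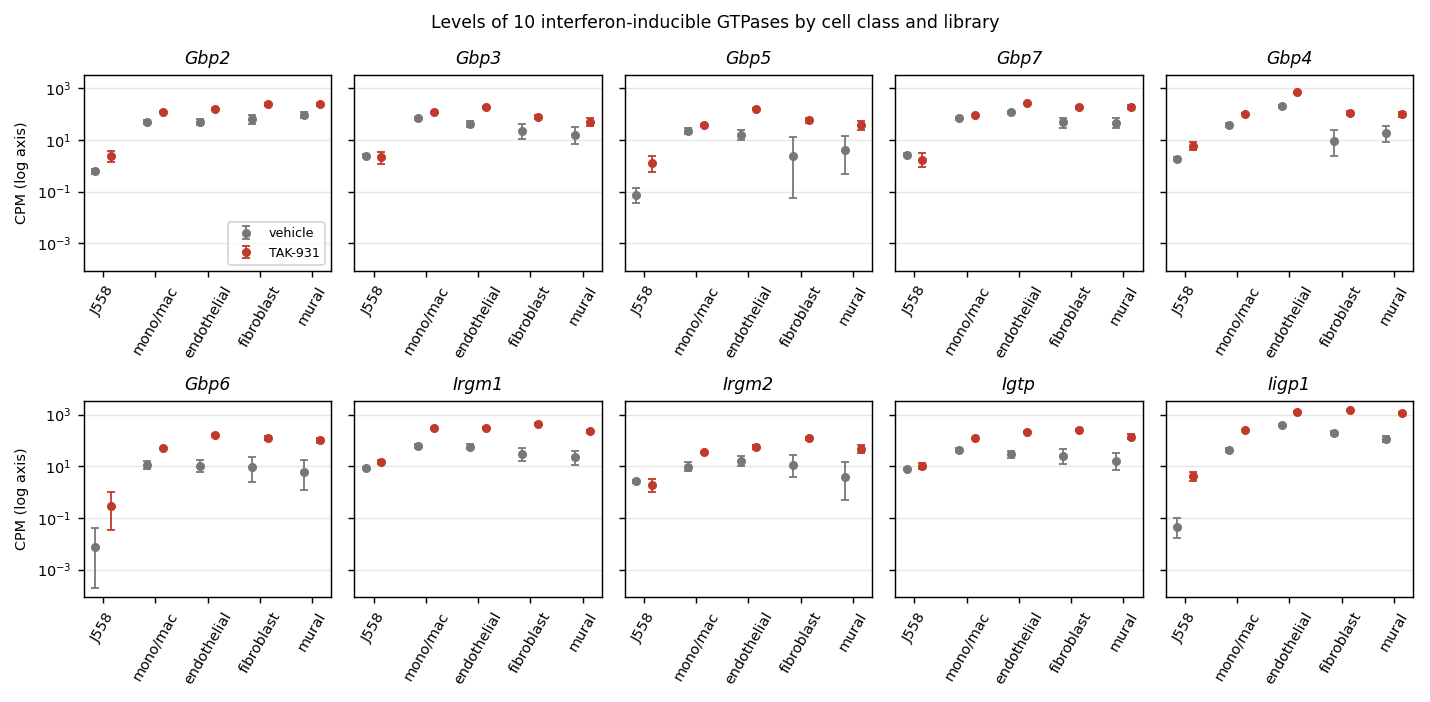
Level of each GTPase gene (CPM, log axis) in 5 cell classes of the vehicle library (grey) and the TAK-931 library (red), 1 point per library, with bars for exact Poisson 95% intervals. In endothelial-like, fibroblast-like and mural-like cells the red points lie above the grey points for all 10 genes, and Iigp1 is the highest gene with TAK-931 in each of them.

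The other stromal cells gave few vehicle cells but the same direction. In fibroblast-like cells the summed level was 417.3 CPM (358.9 to 482.5) with vehicle and 3062 CPM (2966 to 3161) with TAK-931, and in mural-like cells, the contractile cells around vessels, it was 341.0 CPM (291.8 to 396.1) and 2256 CPM (2144 to 2371). All 10 genes were at least 2-fold higher in each class, where 14.0% of all genes in fibroblast-like and 17.2% in mural-like cells passed that fold. The median log2 ratio was 3.35 (2.17 to 4.55) in fibroblast-like and 3.20 (1.52 to 4.04) in mural-like cells, against -0.19 and 0.14 for all genes. Markers of other cells moved with this. The summed level of the 10 monocyte and macrophage markers was 13.8 CPM with vehicle (3 of 10 with a UMI) and 210.1 CPM with TAK-931 (10 of 10) in fibroblast-like cells, and 7.98 CPM (3 of 10) and 182.1 CPM (9 of 10) in mural-like cells. The 7 T cell markers summed to 25.2 and 164.4 CPM in fibroblast-like cells and to 209.4 and 69.0 CPM in mural-like cells. Their part in the values was not tested. The mural-like class was not cleanly apart from the fibroblast-like one. The 7 fibroblast markers summed to 11760 and 11720 CPM in mural-like cells, against 40760 and 63260 CPM in fibroblast-like cells. With TAK-931 the summed GTPase level of both classes was above that of monocyte/macrophage-like cells (1227 CPM).

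Iigp1 was again the most abundant of the 10 genes, at 194.9 and 1467 CPM in fibroblast-like cells and at 115.7 and 1123 CPM in mural-like cells. In vehicle mural-like cells its interval (87.8 to 149.5 CPM) overlapped that of Gbp2 (68.9 to 124.6 CPM), and 1 cell held 55.2% of the Iigp1 UMIs. Irgm1 stood at 29.8 and 425.1 CPM in fibroblast-like cells, a log2 ratio of 3.83 (3.05 to 4.75). Igtp stood at 25.2 and 254.2 CPM there. Irgm2, the fourth IRG gene, stayed below these 3 in both stromal classes with TAK-931. Among the 6 GBPs of the family Gbp2 had the highest level in fibroblast-like cells with TAK-931 (64.2 CPM with vehicle, 240.6 CPM with TAK-931) and also in mural-like cells (93.7 and 236.4 CPM), while in endothelial-like cells Gbp4 took that place. Gbp5 rested on 1 UMI in the vehicle fibroblast-like cells and on 2 UMIs in the vehicle mural-like cells, so its log2 ratio of 4.65 spans 2.13 to 9.98 in the former. In the vehicle library 1 of 14 fibroblast-like cells held 33.0% of the family's UMIs and 1 of 22 mural-like cells held 34.5%.

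Monocyte/macrophage-like cells held 52.4% of all UMIs of the family in the TAK-931 library and 15.7% in the vehicle library. Their summed level was 417.7 CPM (393.7 to 442.8) with vehicle and 1227 CPM (1215 to 1239) with TAK-931, a 2.94-fold difference. The median log2 ratio was 1.44 (1.16 to 1.72), against 0.01 for all genes. Markers of other cells differed too, with the 7 T cell markers summing to 2.97 CPM with vehicle (4 of 7 with a UMI) and 27.8 CPM with TAK-931 (7 of 7) in this class, and the 7 fibroblast markers to 7.04 CPM (3 of 7) and 34.95 CPM (7 of 7). Their part in the result was not tested. At least 2-fold higher were 7 of the 10 genes, where 13.3% of all genes were.

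The IRG genes were each at least 2-fold higher, with Iigp1 at 44.5 and 258.3 CPM (log2 ratio 2.54, 2.28 to 2.81) and Irgm1 at 61.9 and 289.4 CPM (2.23, 2.01 to 2.46). Irgm2 stood at 9.64 and 35.1 CPM and Igtp at 44.5 and 119.2 CPM. Irgm1 was thus the most abundant of the 10 genes in these cells with TAK-931, where Iigp1 led in the stromal classes. Of the GBPs, Gbp6 (11.5 and 49.5 CPM), Gbp4 (37.8 and 103.2 CPM) and Gbp2 (48.9 and 123.8 CPM) passed the 2-fold limit. Gbp3 (68.6 and 118.7 CPM), Gbp5 (22.6 and 38.0 CPM) and Gbp7 (67.8 and 91.8 CPM) did not, although their intervals stayed above 0. Gbp3 and Gbp7 were the 2 most abundant family members of these cells in the vehicle library, with intervals that overlapped that of Irgm1, and gave 2 of the 3 smallest ratios.

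**Figure D2:**
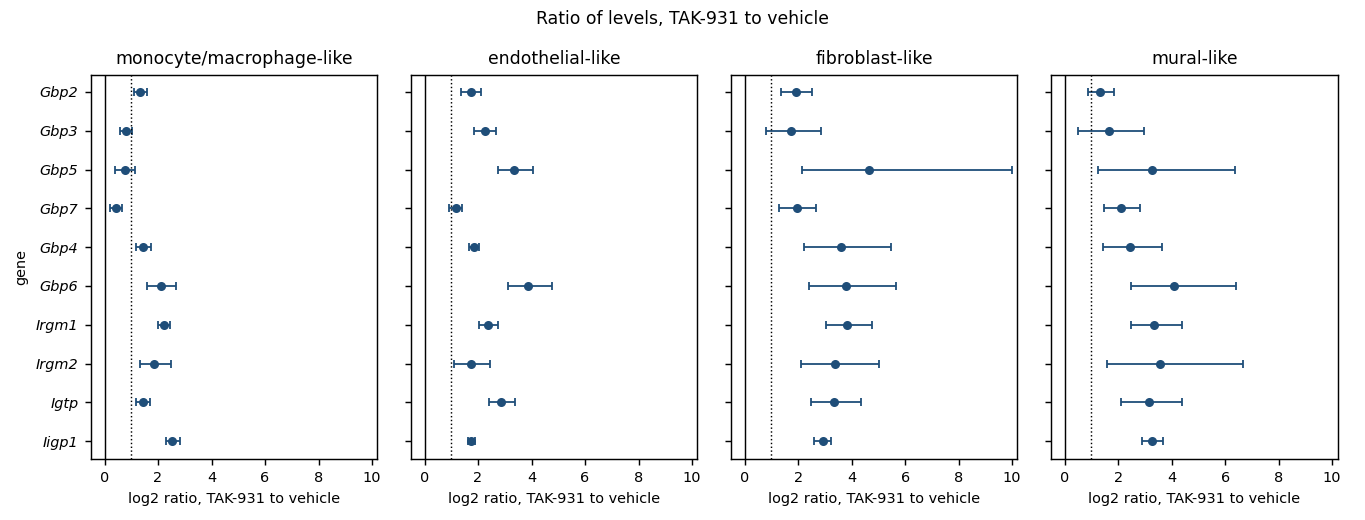
Log2 ratio of the level in the TAK-931 library to that in the vehicle library for each gene (points) with exact 95% counting intervals (bars) in 4 cell classes, with a solid line at 0 and a dotted line at 2-fold. All points lie above 0, and Gbp3, Gbp5 and Gbp7 in monocyte/macrophage-like cells are the only 3 of the 40 points below the dotted line.

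The macrophage class was further parted by the larger of 2 marker scores, 1 for C1q-type macrophage genes (147 vehicle and 1357 TAK-931 cells) and 1 for monocyte genes (71 and 700 cells). Cells on the monocyte side had the higher summed level in both, at 585.0 and 2047 CPM, than cells on the C1q side, at 370.4 and 920.7 CPM. On the monocyte side all 10 genes were at least 2-fold higher with TAK-931, where 15.4% of all genes were, and on the C1q side 7 were, where 12.9% of all genes were. The difference between the sides was not tested. The 3 exceptions on the C1q side were again Gbp3 (64.2 and 81.3 CPM), Gbp5 (19.97 and 27.2 CPM) and Gbp7 (68.0 and 69.9 CPM). Gbp7 on the monocyte side stood at 67.2 and 150.5 CPM.

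J558 plasmacytoma-like cells, the tumour cells, had the lowest summed level of the family in both libraries, although with vehicle the interval of the 11 dendritic-like cells (12.6 to 74.9 CPM) included their value. The sum was 26.8 CPM with vehicle and 44.9 CPM with TAK-931, a log2 ratio of 0.75 (0.58 to 0.91), and 4 of the 9 genes with at least 10 UMIs were at least 2-fold higher, where 9.58% of all genes were. These 4 were Gbp2, Gbp4, Gbp5 and Iigp1, which rest on 17, 41, 9 and 28 TAK-931 UMIs. The top cell of the 96 held 58.8%, 17.1%, 33.3% and 28.6% of those UMIs. The median log2 ratio was 0.80 (0.50 to 1.09). Irgm1 (8.58 and 14.9 CPM) and Igtp (7.83 and 10.3 CPM) were the most abundant members. Gbp3, Gbp7 and Irgm2 had log2 ratios of -0.21, -0.65 and -0.47, each with an interval that included 0. The effector Iigp1 had 6 UMIs in 3003 vehicle cells and 28 UMIs in 96 TAK-931 cells, or 0.0451 and 4.02 CPM. Markers of monocytes and macrophages moved with this, since their summed level in the same tumour cells was 30.3 CPM with vehicle and 222.1 CPM with TAK-931 (10 of 10 markers with a UMI in both). Their part in the tumour cell values was not tested. The median depended on how the tumour cells were taken. With free RNA subtracted it was 0.18 (-0.32 to 0.56) over 7 genes, with Leiden clusters in place of gates 2.06 (1.69 to 2.41) over 10 genes, and with cells of 2 gates kept, an alternative chosen after seeing the data, 1.96 (1.56 to 2.32) over 10 genes.

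Lymphoid and dendritic cells can hardly be compared because the vehicle library held so few of them. In CD8 T-like cells the vehicle sum rests on 44 UMIs from 7 cells, at 428.5 CPM (311.4 to 575.3) against 360.3 CPM (347.9 to 373.1) with TAK-931. The median log2 ratio was 0.15 (-1.67 to 2.83) over 10 genes, of which Gbp5 and Irgm2 had no vehicle UMI, and -0.005 over the 8 others, and 2 genes were at least 2-fold higher and 3 at least 2-fold lower, where 14.4% of all genes were at least 2-fold higher and 19.6% at least 2-fold lower. The 3 lower ones, Gbp7, Irgm1 and Iigp1, rest on 18, 6 and 3 vehicle UMIs, and the intervals of Irgm1 and Iigp1 included 0. The 10 monocyte and macrophage markers summed to 19.5 CPM in these cells with vehicle (2 of 10 with a UMI) and to 332.8 CPM with TAK-931 (10 of 10), and their part in the values was not tested. In dendritic-like cells 6 UMIs from 11 vehicle cells stood against 273 UMIs from 34 TAK-931 cells (34.4 and 386.7 CPM), and 7 of 8 genes with at least 10 UMIs in the pair of sums passed the 2-fold limit, where 19.6% of all genes did. Of these 7, Gbp3, Irgm1, Igtp and Iigp1 had no vehicle UMI and were counted only through the TAK-931 sum, so the count gives no support to a difference. Their log2 intervals had no upper bound and began at 2.125 for Irgm1, 1.885 for Iigp1, 1.015 for Igtp and 0.505 for Gbp3. The intervals of Gbp4 and Gbp7 included 0. The 10 monocyte and macrophage markers summed to 476.1 CPM in dendritic-like cells with vehicle (6 of 10 with a UMI). With TAK-931 they summed to 937.6 CPM (10 of 10), and their part in the values was not tested.

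Within the TAK-931 library the summed level could be ordered over 11 classes. Endothelial-like cells (3488 CPM) stood above fibroblast-like (3062 CPM), mural-like (2256 CPM), monocyte/macrophage-like (1227 CPM) and CD4 T-like cells (976.5 CPM, 927.8 to 1027), with no overlap of the counting intervals between neighbours. Plasmacytoid dendritic-like (562.8 CPM, 511.6 to 617.6) and B-like cells (512.0 CPM, 391.7 to 657.7) overlapped, B-like overlapped dendritic-like cells, and so did dendritic-like (386.7 CPM), CD8 T-like (360.3 CPM) and NK-like cells (357.8 CPM). J558 plasmacytoma-like cells came last. In the vehicle library endothelial-like cells also came first and the tumour cells last, with the overlap just named, and the intervals of CD8 T-like, monocyte/macrophage-like and fibroblast-like cells overlapped.

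Single genes departed from this order. Iigp1 was at 1274 CPM in endothelial-like cells with TAK-931 and at 7.50 CPM in CD8 T-like and 1.07 CPM in NK-like cells, where 1 UMI was counted in 59 cells. Gbp7 was the leading member in CD8 T-like (85.3 CPM) and NK-like cells (106.5 CPM), and Igtp followed in CD8 T-like cells (65.1 CPM). The interval of Gbp7 overlapped that of Gbp3 (84.1 CPM) in NK-like cells. That of Igtp overlapped Gbp4 (58.1 CPM) in CD8 T-like cells. In CD4 T-like cells Gbp7 (211.4 CPM), Igtp (177.0 CPM) and Iigp1 (156.3 CPM) led, and the interval of Iigp1 overlapped that of Gbp3 (135.5 CPM). The effector Iigp1 thus ranked among the leading members in CD4 T-like cells and among the lowest in CD8 T-like and NK-like cells.

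Cells were also thinned to 4000 UMIs each to compare how many of the 10 genes were seen per cell at equal depth, and no cell of the classes named here was too shallow. Of endothelial-like cells, 27.4% (17.6 to 39.1, 20 of 73 cells) had a UMI of at least 3 members with vehicle and 89.8% (84.2 to 93.96, 150 of 167 cells) with TAK-931. Without thinning these shares were 69.9% and 99.4%. Of monocyte/macrophage-like cells, 19.3% (14.3 to 25.1) and 48.8% (46.6 to 51.0) did so, or 42.2% and 79.8% without thinning. Among J558 plasmacytoma-like cells, 3 members were reached after thinning by 0 of 3003 with vehicle and by 0 of 96 with TAK-931 (upper limits 0.123% and 3.77%), and without thinning by 5.56% and 29.2%. These cells are no matched background for free RNA, because they hold Irgm1 and Igtp transcripts themselves and their median depth before thinning was 42413 and 72254 UMIs, against 15495 and 13131 UMIs in endothelial-like cells.

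The distributions over the thinned cells differed for most endothelial-like cells and not for a few. At 4000 UMIs the median endothelial-like cell had 2 UMIs of the family with vehicle and 12 with TAK-931, only 6 of 73 vehicle cells reached that TAK-931 median, and 5.39% of TAK-931 cells lay at or below the vehicle median. In monocyte/macrophage-like cells the medians were 1 and 3 UMIs, 26.2% of vehicle cells reached the TAK-931 median and 30.1% of TAK-931 cells lay at or below the vehicle median, so the libraries overlapped far more. In fibroblast-like cells all 39 TAK-931 cells and 7 of 14 vehicle cells held a UMI of the family after thinning, and all 14 vehicle cells did before it. For Iigp1 alone the share of thinned endothelial-like cells with a UMI was 35.6% (24.8 to 47.7) with vehicle and 86.2% (80.1 to 91.1) with TAK-931.

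**Figure D3:**
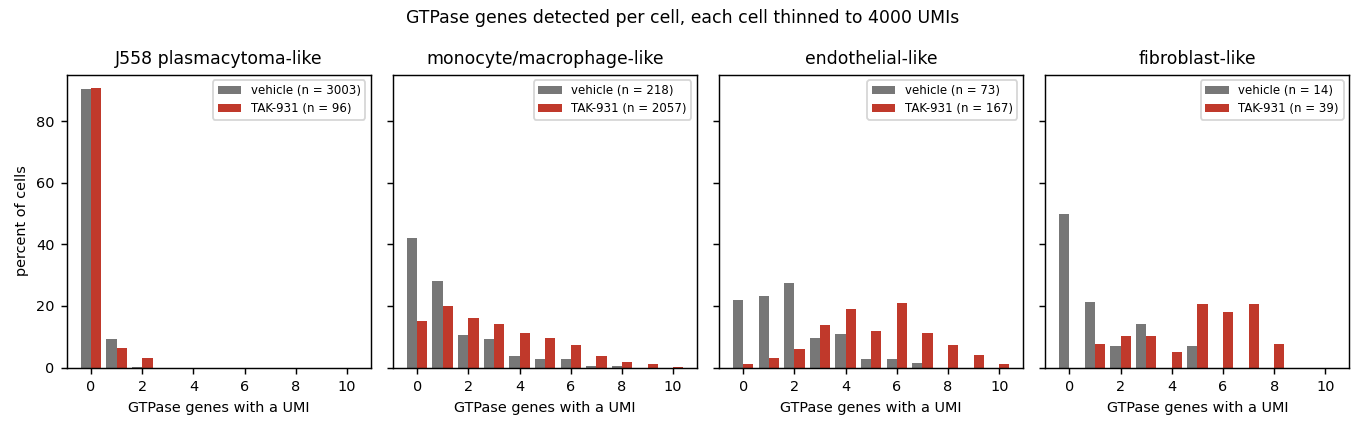
Percent of cells (bars) by the number of the 10 GTPase genes with a UMI, each cell thinned to 4000 UMIs, in the vehicle library (grey) and the TAK-931 library (red). At least 3 genes were seen in 27.4% and 89.8% of endothelial-like cells and in 19.3% and 48.8% of monocyte/macrophage-like cells.

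Markers of other cells in the endothelial-like class also differed between the libraries. The summed level of the 10 monocyte and macrophage markers was 26.6 CPM with vehicle (8 of 10 with a UMI) and 205.3 CPM with TAK-931 (10 of 10), against 362.2 and 8358 CPM in all barcodes of each library. In the same cells the 7 T cell markers summed to 2.28 and 13.6 CPM and the 7 fibroblast markers to 2.28 and 23.0 CPM. The part of these markers in the endothelial-like values was not tested. The endothelial markers themselves stood at 9450 and 6722 CPM. When the cells were clustered without the 10 genes, 80 vehicle cells and 1 cell of the TAK-931 library fell in 1 endothelial-like cluster, 5 and 210 in the other, so that the vehicle and TAK-931 values rest on different clusters.

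Related gene lists were read against the 10.1% of all genes in endothelial-like cells and the 13.3% in monocyte/macrophage-like cells that were at least 2-fold higher. Of the other interferon-inducible GTPases, all 7 genes counted were at least 2-fold higher in endothelial-like cells (median log2 ratio 2.75) and 5 of 7 in monocyte/macrophage-like cells (1.22). Among these 5, Tgtp1 (0 and 125 UMIs), was counted only through the TAK-931 sum, and without it 4 of 6 passed (1.13). Gbp10 had the largest ratio in endothelial-like cells (1.52 and 50.5 CPM, sharing 3′ sequence with Gbp6) and Gbp9 the smallest (47.1 and 103.5 CPM). The Gbp10 ratio rests on 2 vehicle UMIs. Its log2 interval (3.18 to 8.12) overlapped that of Tgtp1 (2.305 to 4.11). In monocyte/macrophage-like cells Gbp8 stood at 33.7 and 34.3 CPM. A list of genes induced by interferon gamma held Cxcl9, Cxcl10, Cd274, Ido1, Serpina3g and Batf2. Serpina3g and Batf2 encode neither chemokines nor checkpoint proteins. At least 2-fold higher were 6 of 6 in endothelial-like cells (3.14) and 5 of 6 in monocyte/macrophage-like cells (1.59). Ido1 had no vehicle UMI in either class, and without it these were 5 of 5 (2.55) and 4 of 5 (1.40). In fibroblast-like and mural-like cells 4 of 5 (4.96) and 4 of 5 (3.84) passed, where 14.0% and 17.2% of all genes did. Without genes that had no vehicle UMI these were 3 of 4 (6.71) and 3 of 4 (3.79). Cxcl9, a chemokine that draws T cells, stood at 533.6 and 2475 CPM in endothelial-like cells, and Cd274, the gene of PD-L1, at 6.07 and 80.5 CPM.

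Upstream, 6 of 10 genes of interferon gamma and its signal pathway were at least 2-fold higher in endothelial-like cells (median 1.17) and 5 of 11 in monocyte/macrophage-like cells (0.85). Without genes that had no vehicle UMI, Ciita in the former and Ifng in the latter, these were 5 of 9 (1.06) and 4 of 10 (0.75). The high end in endothelial-like cells was Nlrc5, the MHC class I transactivator (5.31 and 33.8 CPM), and Ciita, its MHC class II counterpart (0 and 53 UMIs). The low end was the kinase gene Jak1 (408.4 and 250.6 CPM) and the receptor gene Ifngr2 (43.3 and 28.2 CPM). Transcripts of Ifng itself numbered 10 in the kept cells of the vehicle library and 1215 in those of the TAK-931 library, of which 67.4% lay in CD8 T-like cells (93.0 CPM, 86.7 to 99.6). Ifnb1 had 8 and 11 UMIs. Of the type I interferon lists, 1 of 6 signal genes (median 0.45) and 4 of 9 stimulated genes (0.83) were at least 2-fold higher in endothelial-like cells, and 1 of 6 (0.41) and 2 of 9 (0.29) in monocyte/macrophage-like cells. In fibroblast-like and mural-like cells 8 of 8 (3.63) and 5 of 5 (1.66) stimulated genes passed that fold. Of all genes 14.0% and 17.2% did. In fibroblast-like cells 4 of these 8 had no vehicle UMI, and without them 4 of 4 passed (3.28). Type I signal genes gave 3 of 5 (1.65) and 4 of 5 (1.28). The interferon gamma signal list gave 5 of 9 (1.285) and 6 of 9 (1.32). In fibroblast-like cells it gave 4 of 8 (0.885) without a gene lacking a vehicle UMI. The lists differ in size and no difference between them was tested. Isg15, a ubiquitin-like protein gene, stood at 355.2 and 354.8 CPM in endothelial-like cells, whereas Ifit3, an antiviral RNA-binding protein gene, stood at 3.795 and 31.4 CPM.

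Of the partners of these GTPases, the autophagy conjugation genes, whose products place IRG and GBP proteins on vacuoles, were at least 2-fold higher in 0 of 10 cases in endothelial-like cells (median -0.27, 2 at least 2-fold lower) and 1 of 10 in monocyte/macrophage-like cells (0.16). Atg5 stood at 41.0 and 18.1 CPM in endothelial-like cells. Inflammasome genes were at least 2-fold higher in 3 of 6 cases in endothelial-like cells (1.02), or 2 of 5 (0.78) without Il1b, which had no vehicle UMI, with the adaptor gene Pycard at 12.2 and 56.1 CPM and Casp4 at 43.3 and 103.2 CPM. In monocyte/macrophage-like cells 1 of 8 was higher (Casp4, 60.0 and 135.4 CPM) and 1 lower (Il18, 114.5 and 35.5 CPM), with a median of 0.13. Over all genes the shares at least 2-fold higher were 10.1% in endothelial-like and 13.3% in monocyte/macrophage-like cells, and the shares at least 2-fold lower were 10.3% and 8.61%.

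**Figure D4:**
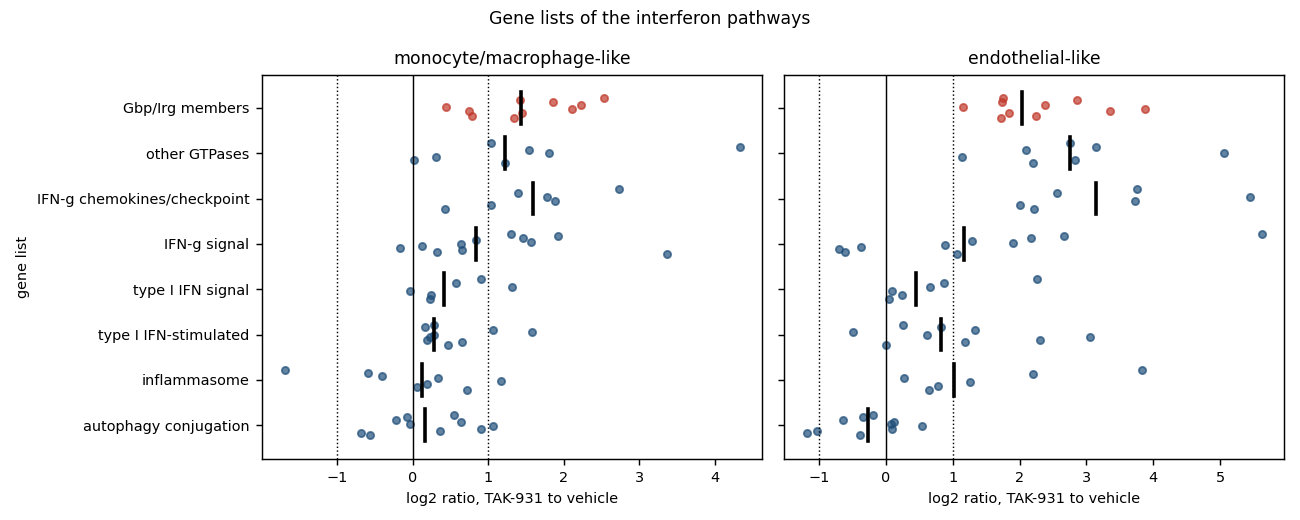
Log2 ratio of TAK-931 to vehicle for each gene (points) of 8 lists, with the median of each list (black bar), in monocyte/macrophage-like and endothelial-like cells, for genes that reached 10 UMIs over the pair of sums. Dotted lines mark 2-fold. The 10 GTPases (red) have medians of 1.44 and 2.04, and the autophagy list lies around 0 in both.

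The genes whose levels were most like the mean profile of the family were sought over 12 sums, which are the 6 classes with at least 10 cells in both libraries and share depth within a library. Among 10874 genes, the highest Pearson correlation of log2(CPM + 1) was that of Gm4951 (0.99), followed by Oasl2 and Rtp4 (both 0.97), Irf1 (0.97), Nod1, Parp9, Xaf1, Slc25a36 and F830016B08Rik (all 0.95) and Tgtp2 (0.94). Within the family, the correlation of a member with the mean, of which it is itself a part, ran from 0.83 for Gbp5 to 0.97 for Gbp6. Irf1, an interferon-induced transcription factor that binds ISRE-type sequences such as those capitalised above, stood at 91.9 and 342.6 CPM in endothelial-like and at 67.5 and 199.7 CPM in monocyte/macrophage-like cells.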

How the data were processed

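1 vehicle and 1 TAK-931 library were sequenced from the 3′ end in droplets. The authors deposited UMI counts per gene and barcode, not normalized, from Cell Ranger 6.0.0 on mm10 per the submitters' processing notes, while the methods name a human build. The authors' filter (over 2000 genes, under 15% mitochondrial UMIs) was applied here.

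Cells were gated on marker lists: a mean ln(1 + counts per 10000) of at least 0.5 (0.25 for NK and dendritic lists) with at least 3 markers detected. Doublets were treated by leaving out cells in gates of 2 lineages. Scrublet called 18 and 1 barcodes, too few to have worked. UMIs were summed per class and library. CPM carry exact Poisson, ratios exact conditional binomial and shares exact Clopper-Pearson intervals. Where a sum was 0, 0.5 was added to both. The interval of a median is the median of its genes' bounds. Genes needed 10 UMIs in both sums together and classes 10 cells in each library, except CD8 T-like. Gene lists were described by counts and medians, and the 2 highest and 2 lowest genes with at least 50 UMIs could be named, beside all 10 GTPases and the 10 genes most like them. Ifng and Ifnb1 were named beyond this rule, with their values seen. So were Ido1 and Il1b, to mark counts without a vehicle UMI, and Serpina3g, to spell out its list. The steps were tested on simulated data. The GTPases and lists were chosen with earlier results of these data known. Software was python 3.11.15, numpy 2.4.6, scipy 1.17.1, pandas 2.3.3, scanpy 1.11.5, leidenalg 0.10.2 and matplotlib 3.10.9.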

Additional observations from a re-analysis of the deposited data

Results flagged for a closer look

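Gbp7 had a log2 ratio of -1.04 (-1.71 to -0.28) in CD8 T-like cells and ratios above 0 in monocyte/macrophage-like, endothelial-like, fibroblast-like and mural-like cells. It stood out because the intervals lie on opposite sides of 0. The vehicle value rests on 18 UMIs in 7 cells, and the difference between classes was not tested.

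Barcodes with over 500 and at most 2000 genes were outside the comparisons. Among those gated as monocyte/macrophage-like, the summed level of the 10 GTPases was 257.4 CPM (208.7 to 314.0) in 93 vehicle barcodes and 1012 CPM (957.3 to 1069) in 369 TAK-931 barcodes, above the vehicle level. Their summed macrophage markers were 12440 and 13140 CPM.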

How the results depend on the processing

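No paired analysis was possible because each group held 1 library, and no library could be left out. The medians in endothelial-like, monocyte/macrophage-like, fibroblast-like and mural-like cells and their counts at least 2-fold higher stayed within their intervals or within 1.5 times under every alternative run, and no member's ratio changed sign beyond its interval. The median in J558 plasmacytoma-like cells (0.80, 4 genes) was 1.96 (7 genes) with cells of 2 gates kept, an alternative chosen after seeing the data, 2.06 (7 genes) with Leiden clusters, 0.18 (2 genes) with free RNA subtracted, 0.40 (2 genes) at 50 UMIs and 1.23 at 1 UMI. For gates and clusters the cause was not tested. The whole-library median (4.48) was 3.804 as the mean of each cell's CPM and 4.32 with median-ratio scaling. In CD8 T-like cells 1 gene in place of 2 was at least 2-fold higher with over 1000 or over 500 genes. Shares of cells with at least 3 members depend on depth. At 2000 UMIs they were 8.26% and 29.9% in monocyte/macrophage-like cells and 67.1% in endothelial-like TAK-931 cells, and without thinning 42.2% and 79.8%, and 69.9% and 99.4%. The median log2 shift taken out by median-ratio scaling was -0.27 in endothelial-like and -0.34 in fibroblast-like cells, which raised the GTPases' ratios there by the same amounts. Sums with few vehicle UMIs limit the fibroblast-like, mural-like, dendritic-like and CD8 T-like values.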

Other observations

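In low-gene barcodes gated as endothelial-like, 3 vehicle barcodes held 10 UMIs of the family (1529 CPM, 733.0 to 2811) and 62 TAK-931 barcodes held 630 (2526 CPM, 2333 to 2731). In those gated as CD8 T-like the order was the other way, with 937.0 CPM (693.2 to 1239) in 13 vehicle barcodes and 362.1 CPM (320.4 to 407.7) in 173 TAK-931 barcodes. Those gated as NK-like gave 477.8 CPM (317.5 to 690.5) and 426.4 CPM (346.6 to 519.2), and other T-like ones 442.4 CPM (298.5 to 631.6) and 836.3 CPM (750.2 to 929.5). Cells that passed the gates of 2 lineages held 9.43% of the family's UMIs in the vehicle library and 18.3% in the TAK-931 library, at 1.51% and 8.09% of the kept cells.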
